A study of Homo sapiens with 4 samples.

Results

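Broad intragenic H3K27Ac domains of untreated MOLM13 cells that had no called H3K27Ac peak after exposure to the Menin inhibitor SNDX-50469 are described here. Domains were chosen from the control peak list as peaks of 4000 bp or wider on 21 autosomes (chromosome 8 was not used). They had to overlap a protein-coding gene body and lie more than 2.5 kb from every protein-coding 5′ end. The 5′ end was the outermost annotated end of each gene, so a domain could still contain an internal start. Of the 245875 control peaks, 4012 met these filters. A domain was defined by its overlap as lost when it shared 0 bp with the list of the treated cells, and as kept when it shared 1 bp or more. There were 2105 lost and 1907 kept domains. A domain is said to be in a gene when it overlaps the gene body, and 92.9% of the lost ones lay wholly inside protein-coding gene bodies. Since the groups were selected on overlap with the treated list, the loss itself is a description and not a test.

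MOLM13 is an established line of human AML cells that carries MLL1-r, a rearrangement fusing MLL1 to a partner protein. Cells labelled as untreated, for which the protocol names a DMSO arm, were compared with cells given 500 nM SNDX-50469 over 16 h. The mark was profiled by chromatin immunoprecipitation with Tn5 tagmentation of the recovered DNA. Each condition has 1 H3K27Ac library, so no spread between replicates is known, and 2 input libraries were not analysed here. All intervals of shares below are 95% Wilson intervals that cover counting error only. The number of reads behind each list is unknown, and sequencing depth cannot be told apart from treatment. In a bulk library, fewer cells with the mark and less of the mark in each cell cannot be told apart either.

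H3K27Ac is an acetyl mark placed on histone H3 by CBP and p300 at active promoters and enhancers. Inside genes, away from start sites, broad stretches of it usually mark clustered or large enhancers. Menin tethers MLL1 and its fusion proteins to chromatin, where the fusions recruit elongation complexes that spread into the bodies of genes such as MEIS1 and CDK6. Menin inhibitors such as SNDX-50469 block the binding of Menin to MLL1.

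The control list carried the marks of the labelled cell type. All 14 genes on a list of myeloid leukemia markers had a control peak, with a median of 74.7% of the gene body covered, and the 5 genes of an MLL-fusion list had a median of 66.2%. Of 8 erythroid markers, 5 had no control peak, among them HBB, HBA1 and HBA2, and 4 of 8 epithelial markers (EPCAM, KRT5, KRT14 and KRT19) had none. The 3 erythroid markers with a peak had up to 96% covered and a fold of up to 7.01. Of 8 T cell markers, 7 had a peak, with a median of 11.5% and up to 69.2% covered, and none at a fold of 5 or more. Of 6 neuron markers, 4 had a peak, with up to 7.62% covered. Some lists, the erythroid one included, were thus less clear. Of 6 B cell markers, 5 had a peak, with up to 87.4% covered and a fold of up to 6.45. Of 6 hepatocyte markers, 2 had a peak, with up to 69.8% covered and a fold of up to 5.84. The treated list was much smaller, with 54061 peaks over 29.4 Mb against 224 Mb in control, and it started at a higher −log10 p of 3.93 against 2.68. Of all control peaks, 91.8% shared no base with it, and among the 9295 control peaks of 4000 bp or more on the autosomes used this share was 43.5%.

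To show what kind of DNA the domains hold, annotated start sites inside them are printed first. The windows run from 250 bases before to 50 bases after a RefSeq start (build GRCh38.p14), are written 5′ to 3′ on the gene's strand, and carry every CpG dinucleotide in capitals. The sequence of the domains themselves was not printed. A first set of 4 windows comes from the lost domains of highest control fold that contain an internal protein-coding start: SMAD3, a transducer of TGF-β signals (chr15:67098429-67098728, plus strand), ACSL1, an acyl-CoA synthetase (chr4:184805504-184805803, minus strand), CPNE5, a copine (chr6:36757351-36757650, minus strand), and DOCK10, a guanine nucleotide exchange factor (chr2:224947000-224947299, minus strand). Since they lie inside lost domains, all 4 windows were by definition under a control peak and none was under a treated peak.
SMAD3: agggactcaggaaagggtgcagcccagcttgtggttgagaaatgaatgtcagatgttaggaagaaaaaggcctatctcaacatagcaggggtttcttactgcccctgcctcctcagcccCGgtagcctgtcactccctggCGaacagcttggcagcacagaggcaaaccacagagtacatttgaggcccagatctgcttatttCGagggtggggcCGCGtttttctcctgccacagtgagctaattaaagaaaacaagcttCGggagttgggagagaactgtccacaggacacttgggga
ACSL1: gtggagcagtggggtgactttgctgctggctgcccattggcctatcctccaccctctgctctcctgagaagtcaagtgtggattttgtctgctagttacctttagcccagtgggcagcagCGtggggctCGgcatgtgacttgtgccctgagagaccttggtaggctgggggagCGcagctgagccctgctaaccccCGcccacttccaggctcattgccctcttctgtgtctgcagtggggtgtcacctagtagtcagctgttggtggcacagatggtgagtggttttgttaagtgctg
CPNE5: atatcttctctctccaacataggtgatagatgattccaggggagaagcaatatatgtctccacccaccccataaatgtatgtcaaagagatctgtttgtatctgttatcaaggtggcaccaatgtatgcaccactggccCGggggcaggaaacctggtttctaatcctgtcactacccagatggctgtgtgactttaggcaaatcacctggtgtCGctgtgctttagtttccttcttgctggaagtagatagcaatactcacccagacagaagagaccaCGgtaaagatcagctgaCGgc
DOCK10: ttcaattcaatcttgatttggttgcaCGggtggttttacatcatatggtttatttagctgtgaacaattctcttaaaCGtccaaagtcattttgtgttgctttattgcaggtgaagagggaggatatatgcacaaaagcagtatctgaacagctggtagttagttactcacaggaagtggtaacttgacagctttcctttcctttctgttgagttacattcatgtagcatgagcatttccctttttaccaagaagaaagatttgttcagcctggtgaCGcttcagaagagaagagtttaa

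The next pair comes from kept domains of high fold, with internal starts of CCND3, which encodes cyclin D3 (chr6:41939156-41939455, minus strand), and HNRNPH1, an RNA-binding protein (chr5:179623352-179623651, minus strand). These windows had a peak in both lists and differ in CpG content, with 3 CpGs in CCND3 and 33 in HNRNPH1.
CCND3: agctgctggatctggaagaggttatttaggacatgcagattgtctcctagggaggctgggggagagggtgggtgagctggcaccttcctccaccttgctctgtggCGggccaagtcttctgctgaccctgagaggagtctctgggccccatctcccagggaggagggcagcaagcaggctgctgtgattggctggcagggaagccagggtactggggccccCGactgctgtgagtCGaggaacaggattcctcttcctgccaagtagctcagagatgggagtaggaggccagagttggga
HNRNPH1: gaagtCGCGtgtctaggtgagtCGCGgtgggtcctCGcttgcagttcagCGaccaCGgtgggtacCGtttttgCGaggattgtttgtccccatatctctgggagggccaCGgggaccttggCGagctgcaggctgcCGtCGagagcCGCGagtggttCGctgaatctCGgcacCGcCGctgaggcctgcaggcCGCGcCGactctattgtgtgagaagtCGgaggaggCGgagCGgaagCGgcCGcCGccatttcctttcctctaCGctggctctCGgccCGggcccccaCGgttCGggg

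The last pair gives the outermost starts of host genes whose bodies held several lost domains, CDK6 (chr7:92836524-92836823, minus strand) and MEIS1 (chr2:66434875-66435174, plus strand). The CDK6 window had a peak in both lists and the MEIS1 window had a control peak only. These host gene starts held 37 and 18 CpGs, against 3 to 6 in the windows from lost domains.
CDK6: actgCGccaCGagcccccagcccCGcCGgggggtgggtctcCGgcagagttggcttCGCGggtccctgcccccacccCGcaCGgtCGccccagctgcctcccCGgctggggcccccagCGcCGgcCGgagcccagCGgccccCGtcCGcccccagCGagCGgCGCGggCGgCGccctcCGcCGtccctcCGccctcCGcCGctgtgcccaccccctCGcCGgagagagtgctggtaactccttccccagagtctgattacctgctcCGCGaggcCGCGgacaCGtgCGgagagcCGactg
MEIS1: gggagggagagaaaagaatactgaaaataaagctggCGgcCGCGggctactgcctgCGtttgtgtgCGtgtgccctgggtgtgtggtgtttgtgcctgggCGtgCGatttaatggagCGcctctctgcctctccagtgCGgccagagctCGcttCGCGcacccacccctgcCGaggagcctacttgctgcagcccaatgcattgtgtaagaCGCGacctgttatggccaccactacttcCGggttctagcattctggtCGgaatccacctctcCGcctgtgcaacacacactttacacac

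Internal protein-coding starts were scarcer in lost than in kept domains. A protein-coding start of the RefSeq promoter table lay inside 71 of 2105 lost domains (3.37%, 2.68 to 4.23) and inside 211 of 1907 kept domains (11.1%, 9.73 to 12.6). The same direction was seen within tertiles of control fold, with 2.31% against 3.95% in the lowest, 4.8% against 9.01% in the middle and 3.6% against 13.8% in the highest tertile, although in the lowest tertile the intervals overlapped. Kept domains are wider, so the shares were also taken by width. Within tertiles of width they were 2.82% against 11.6%, 3.75% against 9.04% and 4% against 12%, with intervals apart in each, and per Mb of domain 5.31 lost and 10.9 kept domains held a start. For lncRNA starts the shares were 3.18% (2.51 to 4.02) and 6.4% (5.38 to 7.59), but per Mb the values were 5.01 and 6.31, and the intervals overlapped in each tertile of width. The windows at protein-coding starts in lost domains were also poor in CpG. Their median was 6 CpGs per 300 bases, as in the SMAD3 window above, against 12 in kept domains and 21 over all 21155 protein-coding windows of the table. At least 20 CpGs were found in 8 of 87 such windows in lost domains (9.2%), in 39.4% of 289 windows in kept domains and in 53.4% of all. A gene can have several overlapping windows, so these shares are not over independent sequences.

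Short motifs were searched on both strands of the windows at protein-coding starts, and matches are descriptions only. The C/EBP motif (TTGCNNAA), read by a family of myeloid differentiation factors, was in 22 of the 87 windows in lost domains (25.3%), in 36 of the 289 in kept domains and in 8.68% of all. The ETS motif AGGAAGT was in 20.7%, 14.2% and 8.02% of the 3 sets, and the AP-1 motif TGANTCA was in 12.6%, 10.4% and 6.08%. The GC box GGGCGG ran the other way, with 28.7%, 47.8% and 56.6%. For the RUNX motif TGTGGTT (4.6%, 5.19% and 3.67%), the MEIS motif TGACAG (18.4%, 17.3% and 14.8%) and the E-box CACGTG (5.75%, 5.54% and 8.25%) the sets lay closer together. At lncRNA starts the ETS order of lost and kept domains was reversed, with 12.3% in lost and 16.5% in kept domains. C/EBP, AP-1 and the GC box kept their direction between lost and kept domains only. Over all lncRNA windows C/EBP was in 13.5%, above the 12.2% of kept domains. The GC box was in 25.6% of all, below the 36% of kept domains. Median GC content of the protein-coding windows was 54% in lost domains, 59.7% in kept domains and 62.7% in all. The motif shares were not adjusted for it. No motif is contained in another, and the AP-1 and MEIS motifs start with the same letters, TGA. In the windows printed, SMAD3 held 2 RUNX matches and 1 MEIS match, DOCK10 1 ETS and 1 MEIS match, CPNE5 1 C/EBP and 1 MEIS match, ACSL1 1 GC box, and CDK6 3 GC boxes and 1 E-box, while CCND3, HNRNPH1 and MEIS1 held none of these motifs.

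Lost domains also contained miRNA genes. There were 14 mature miRNAs of 10 genes in 10 of the 2105 lost domains, and 52 of 35 genes in 32 of the 1907 kept domains, which are wider. The 14 in lost domains had 14 different seeds, so no seed family was shared among them. The pair from the miR-139 hairpin, encoded within PDE2A (a cyclic nucleotide phosphodiesterase), is printed as an example. Both arms lay in a single lost domain (chr11:72614335-72618354, 4020 bp, control fold 3.63), as did both arms of miR-4715, miR-4777 and miR-548aq. Capitals mark the seed, bases 2 to 8.
miR-139-5p: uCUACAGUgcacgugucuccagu
miR-139-3p: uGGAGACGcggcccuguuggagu

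The kept domains with miRNA genes included a domain of control fold 10.6 in ZSWIM4 with the miR-23a, miR-27a and miR-24 hairpins, and a domain of fold 7.19 in VMP1 with miR-21. In lost domains the highest fold beside a miRNA gene was 4.78, at miR-4715 in ATP10A.

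Of the 4012 broad intragenic domains, 52.5% (50.9 to 54) were lost, with a summed width of 13.4 Mb, against 43.5% of all wide control peaks on these autosomes. The kept domains summed to 19.3 Mb, of which 3.79 Mb lay under treated peaks. Most kept domains were therefore kept over a small part of their width, with a median of 11.3% (quartiles 4.58% and 26.2%). Under 10% of the width was shared in 887 of 1907 kept domains (46.5%), and at least 50% in 156 (8.18%).

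The place of a wide peak relative to genes was then examined. Wide peaks in a gene but within 2.5 kb of a 5′ end were lost in 382 of 2193 cases (17.4%, 15.9 to 19.1), and wide peaks outside protein-coding genes in 1559 of 3090 (50.5%, 48.7 to 52.2). The intragenic domains thus stood apart from the start-site peaks and not from the intergenic ones. Since start-site peaks had a higher median fold (5.6 against 4.38), the shares were taken again within the tertiles of fold of the intragenic domains, with edges at 3.94 and 4.96. In the lowest tertile 81.1% of intragenic domains (78.9 to 83.1) were lost, beside 79.8% of intergenic peaks (77.1 to 82.3) and 69.3% of start-site peaks (62.6 to 75.3). The middle tertile gave 57.7%, 58.6% and 33.3%, and the highest gave 18.7%, 19% and 4.86%. At like fold the intragenic and intergenic intervals overlapped in each tertile, and the start-site share was below both.

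Control fold and width were compared next. Fold is the authors' enrichment of a peak over the background of its own library, averaged along the peak. The lost domains had a median control fold of 3.92 (quartiles 3.57 and 4.44, range 2.95 to 8), and the kept domains 5.24 (quartiles 4.36 and 6.46, range 3.04 to 13.7). Their median widths were 5500 bp (quartiles 4565 and 7135) and 8092 bp (quartiles 5642 and 11934). Lost domains were therefore the weaker and narrower ones, with wide overlap between the groups. The median −log10 p was 4.9 in lost and 7.65 in kept domains.

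**Figure D1:**
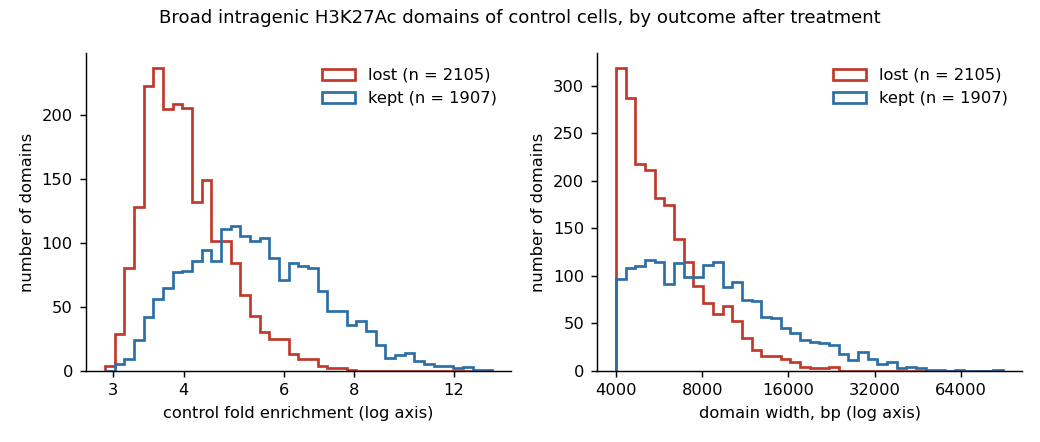
Number of lost (red, n = 2105) and kept (blue, n = 1907) domains by control fold enrichment (left, log axis) and by width in bp (right, log axis). The lost domains pile up at low fold and near the 4000 bp limit, with medians of 3.92 and 5500 bp against 5.24 and 8092 bp in kept domains, and both groups span a shared range.

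The share lost fell with fold in steps. It was 83.8% (81.1 to 86.2) in the lowest quintile of fold (2.95 to 3.66), then 74.8%, 59% and 34.5%, and 10.2% (82 of 803 domains) in the highest quintile (5.74 to 13.7). By quintile of width it fell from 74.6% (71.5 to 77.5) through 64.7%, 60% and 42.1% to 20.9% (18.2 to 23.9). At like fold the share still differed with width, a trend that the 1 bp limit for kept partly builds in. In the middle tertile of fold, 67.6% of the narrowest tertile of domains (63 to 71.9) and 44.8% of the widest (40 to 49.6) were lost. In the highest tertile of fold the values were 29.8% (23.8 to 36.7) and 12.4% (10.3 to 14.9).

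**Figure D2:**
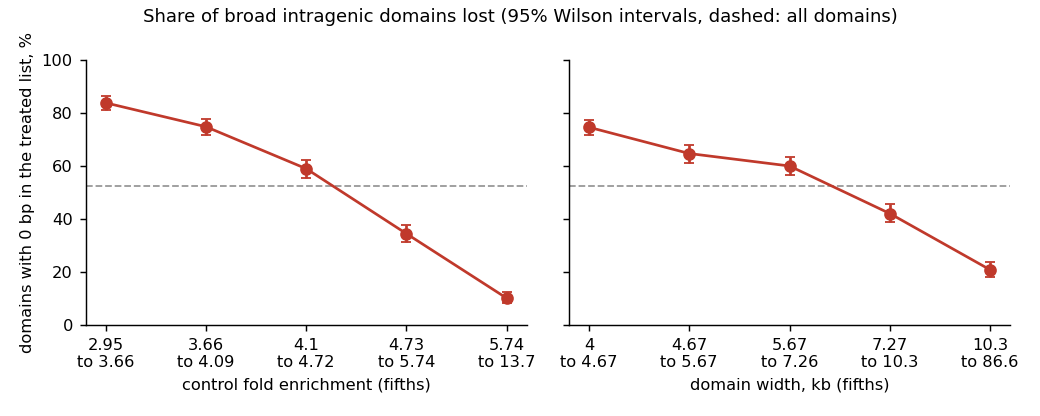
Percent of broad intragenic domains with 0 bp in the treated list, by quintile of control fold (left) and of width in kb (right), each point with its 95% Wilson interval. The share falls from 83.8% to 10.2% along fold and from 74.6% to 20.9% along width, and the dashed line marks the 52.5% of all domains.

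Most lost domains lay above the weakest treated peaks in fold. Of the lost domains, 1768 (84%) had a control fold at or above 3.46, the smallest fold in the treated list, and 1857 (88.2%) had a −log10 p at or above the smallest one there. A −log10 q of 5 or more was reached by 267 lost domains (12.7%). Fold values are relative to each library's own background, so these comparisons do not place the libraries on 1 scale.

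The lost domains with the strongest control signal overlapped the following genes. The domain of highest fold was in MRTFA, a coactivator of serum response factor (chr22:40432257-40445032, 12776 bp, fold 8), 4.28 kb from the nearest treated peak. In XRCC4, a factor of DNA end joining (chr5:83303287-83309499), the fold was 7.7 and the nearest treated peak was 35.4 kb away. In ATP10A, a lipid flippase (chr15:25786922-25793365), these values were 7.55 and 25.8 kb. They were isolated from treated signal to different degrees, since the domain in ARHGAP26 with a fold of 7.22 (chr5:142996463-143000576) ended 0.512 kb from a treated peak and the domain in WIPI2, an autophagy protein (fold 6.98), 0.385 kb from it. The rest of the 10 highest were in CHD5 (a chromatin remodeller, 7.38), PIK3AP1 (a PI3K adaptor, 7.06), COL23A1 (a transmembrane collagen, 6.98), PRKAR1B (a regulatory subunit of protein kinase A, 6.95) and ANXA6 (a calcium-dependent membrane binder, 6.87). For comparison, the highest folds of kept domains were in IL17RA, the interleukin-17 receptor (13.7, with 83.8% of its width shared), HSH2D (13), LINGO3 (12.8), COL23A1 (12.7) and TTC7A (12.6).

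The widest lost domains were of moderate fold. They spanned 23510 bp in NTM (a neural adhesion molecule, fold 5.43), 23352 bp in KSR1 (a scaffold of the RAF-MEK-ERK cascade, fold 5.49) and 22729 bp in RNLS (renalase, fold 4.36). The other members of the 10 widest were in ZNF521 (a hematopoietic zinc finger cofactor, 22626 bp), SYN2, HIVEP3, ADAMTS14, ATP2B2 (a plasma membrane calcium pump, with 2 domains of 20396 and 19551 bp) and IGF2BP2 (an mRNA-binding protein, 19443 bp). The distance from these to a treated peak ran from 6.51 kb in ZNF521 to 171 kb in ADAMTS14.

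At the limits of the rule, membership turned on small amounts. The narrowest lost domains were 4000 bp in MUSK and SNX30 and 4001 bp in FNDC3B, and peaks of 3999 bp in FAM107B and DNAJC18 and of 3998 bp in FLVCR2 were left out. The lost domains nearest to a 5′ end lay 2.52 kb (JPH2) and 2.53 kb (P2RY6 and DPEP2) from it, while peaks at 2438 bp (SNX18), 2424 bp (FAM20B) and 2411 bp (BCL2L10) were left out. The lost domains closest to treated signal were in MDFIC (140 bp), RNLS (202 bp) and SLC29A3 (283 bp). The kept domains with the least shared sequence were in RUNX2 (13 bp), RGS6 (15 bp) and IRF5 (32 bp).

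The median gap from a lost domain to the nearest treated peak was 15.7 kb (quartiles 5.32 and 44.1 kb, longest 1197 kb). A treated peak lay within 1 kb of 88 lost domains (4.18%), within 10 kb of 812 (38.6%) and within 100 kb of 1892 (89.9%), so that 213 (10.1%) lay farther away. The lost domains were also somewhat farther from a protein-coding 5′ end, at a median of 42.2 kb against 31.9 kb in kept domains. The share lost rose from 44% (37.9 to 50.3) at 2.5 to 5 kb to 60.8% (57.5 to 64.1) beyond 100 kb. Within tertiles of fold this rise was smaller, from 78.8% (67.5 to 86.9) to 86.7% (82.6 to 89.9) in the lowest, from 48.8% (38.3 to 59.4) to 62.1% (56.3 to 67.5) in the middle and from 15.8% (9.81 to 24.4) to 20.1% (15.3 to 25.9) in the highest, and the end intervals overlapped in each. Place along the gene made little difference, with 53.9% lost in the tertile nearest the 5′ end, 53.1% in the middle and 50.7% in the tertile nearest the 3′ end.

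**Figure D3:**
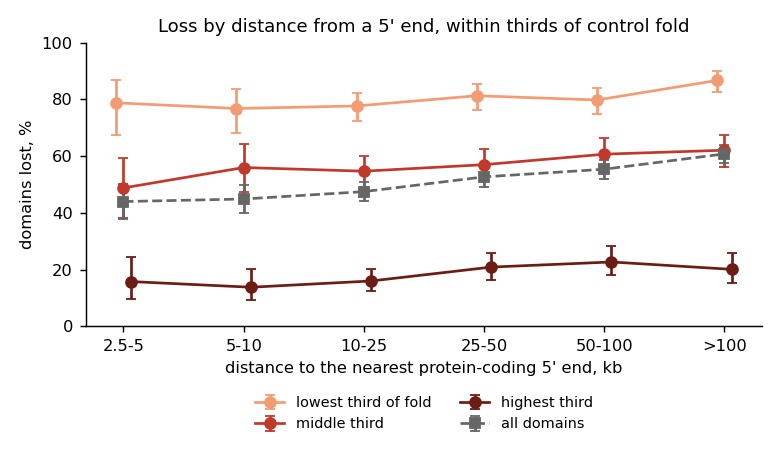
Percent of domains lost by distance to the nearest protein-coding 5′ end in kb, for all domains (grey squares) and within tertiles of control fold (circles), with 95% Wilson intervals. The lines for the 3 fold tertiles stay apart at every distance, and all domains rise from 44% to 60.8%.

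Neighbouring domains were compared in pairs. Another broad intragenic domain lay within 10 kb of 942 lost domains (44.8%) and of 942 kept domains (49.4%). Of the 1194 neighbouring pairs at this spacing, 335 were both lost, 345 were both kept and 514 (43%) held 1 of each. By chromosome, the share lost ranged from 29.3% (23 to 36.6) on chromosome 19 to 60.9% (53.6 to 67.7) on chromosome 7. Chromosomes 13 (39.3%, 32.1 to 46.9) and 6 (40.6%, 35.5 to 45.9) also had intervals below the 52.5% of all domains.

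A lost domain lay in 1407 of 18408 protein-coding genes (7.64%). Of these, 882 held lost domains only and 525 held lost and kept domains, and a further 826 genes held kept domains only. Any broad intragenic domain was held by 2233 genes, and a kept one by 1351. Most hosts had 1 lost domain (1007 genes), 362 had 2 to 4 and 38 had 5 or more, which together held 274 lost domains. The hosts were long genes, which the width and distance filters favour. Median length was 107 kb for genes with a lost domain and 63.6 kb for genes with kept domains only. The median protein-coding gene was 24.3 kb. Counted per domain, so that a gene can enter many times, the median host length was 147 kb for lost and 119 kb for kept domains.

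ARHGAP26, a GTPase-activating protein, held the most lost domains. It had 17, summing to 128 kb, and 8 kept domains of 152 kb. COL23A1 followed with 14 lost (120 kb) and 3 kept, then CDK6, a kinase of the G1 phase of the cell cycle, with 14 lost (79.5 kb) and 3 kept. MSI2, an RNA-binding protein of hematopoietic stem cells, had 12 lost (72.4 kb) and 1 kept, and GAS7, a cytoskeletal adaptor, had 13 lost (71.9 kb) and 4 kept. The next hosts by lost length were XYLT1 (10 lost, a xylosyltransferase of proteoglycan synthesis), FOXP1 (12, a forkhead factor), BABAM2 (9, a member of the BRCA1-A complex), CLEC16A (9) and ETV6 (7, an ETS repressor). Genes with lost domains only included ATP10A (6 domains, 52.2 kb), MAML2 (5, a Notch coactivator, 41.5 kb), PBX3 (5, 40.5 kb), PIK3AP1 (6, 38.9 kb) and EFNA5 (5, an ephrin ligand, 38 kb).

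**Figure D4:**
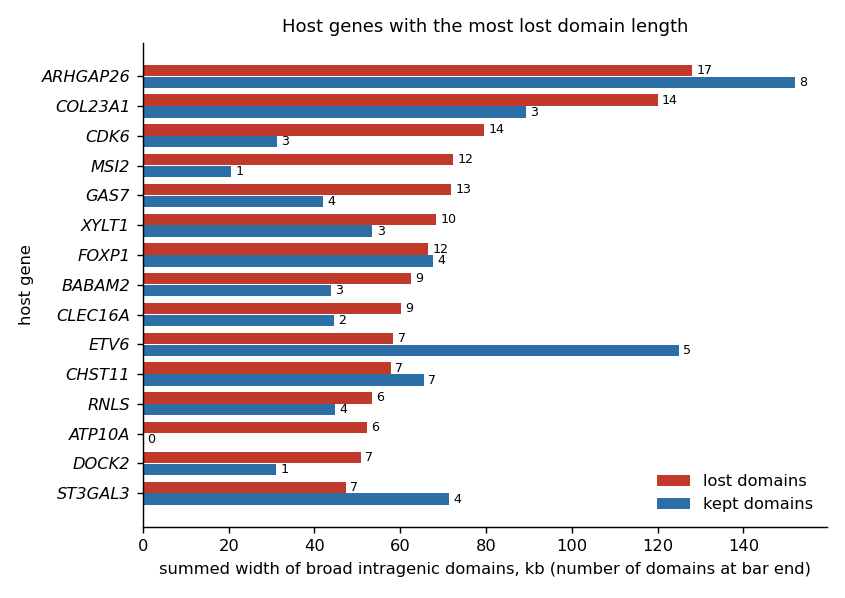
Summed width in kb of lost (red) and kept (blue) broad intragenic domains in the 15 host genes with the largest lost width, with the number of domains at the end of each bar. ARHGAP26 has the longest lost total (128 kb, 17 domains), and ATP10A has no kept domain.

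Coverage of whole gene bodies gives the scale of the difference in these hosts. They were chosen by lost length or for holding lost domains only, so low treated coverage was partly built in. Over all protein-coding bodies on the autosomes used, control peaks covered 10.1% and treated peaks 1.01%. CDK6 was covered over 75.3% of its length in control and 1.99% in treated cells, MSI2 over 42.8% and 1%, and COL23A1 over 81% and 4.88%. ETV6 was the exception among the 10 leading hosts, with 90.6% and 27.1%, and its kept domains included the widest of all (86589 bp, with 63% of it shared). In MAML2, EFNA5, ADAMTS14 and ITGB5 no treated peak was called in the gene body, where control peaks covered 23.1%, 33.4%, 56.7% and 42.5%.

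The start of a host gene did not always share the fate of its body. The 5′ end had a control peak in 686 of 877 genes with lost domains only, and a treated peak was there too in 310 of these 686 (45.2%, 41.5 to 48.9). For genes with lost and kept domains this share was 50.3% (45.7 to 55), for genes with kept domains only 55.1% (51.4 to 58.7), and for all protein-coding genes 50.4% (49.5 to 51.3). Hosts of lost domains only were below all genes, by a few percentage points.

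Of 23 genes on a list of MLL-fusion targets, taken from the study and general knowledge, 13 held a broad intragenic domain and 10 held a lost one, against 7.64% of all genes. Kept domains were found in 11 of the 23. These targets are long, with a median of 139 kb against 24.3 kb, and were partly chosen by the study from these cells, so the count is no independent evidence. Of their 75 domains, 45 (60%, 48.7 to 70.3) were lost, an interval that includes the 52.5% of all domains.

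In CDK6 the 14 lost domains had control folds of 3.31 to 5.65 (median 3.73) and widths of 4154 to 9170 bp. The strongest lay at chr7:92749883-92757178, in the gene body and 79.4 kb from the nearest 5′ end, with no treated peak for 21 kb. The 3 kept domains of CDK6 had folds of 4.75, 4.83 and 6.84 and shared 134, 202 and 1776 bp with treated peaks. At the gene start, printed above, a treated peak of fold 4.75 ran from -0.55 to 0.97 kb relative to the annotated 5′ end.

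In MEIS1, a homeobox cofactor of HOXA9, 4 domains were lost (38.4 kb, folds 3.5 to 4.2) and 1 was kept, sharing 140 bp. The widest lost domain, of 15094 bp, covered the 3′ end of the gene (chr2:66560239-66575332). Beyond the MEIS1 5′ end, 3 treated peaks lay between 1.95 and 11.77 kb. PBX3, a TALE homeobox partner of MEIS1 and HOXA9, held 5 lost domains (folds 3.39 to 4.89) and no kept one. Its widest spanned 16436 bp (chr9:125882128-125898563), and its 5′ end kept a treated peak of fold 4.53. Thus in CDK6 and PBX3 the start was covered by a treated peak and most of the body was not.

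**Figure D5:**
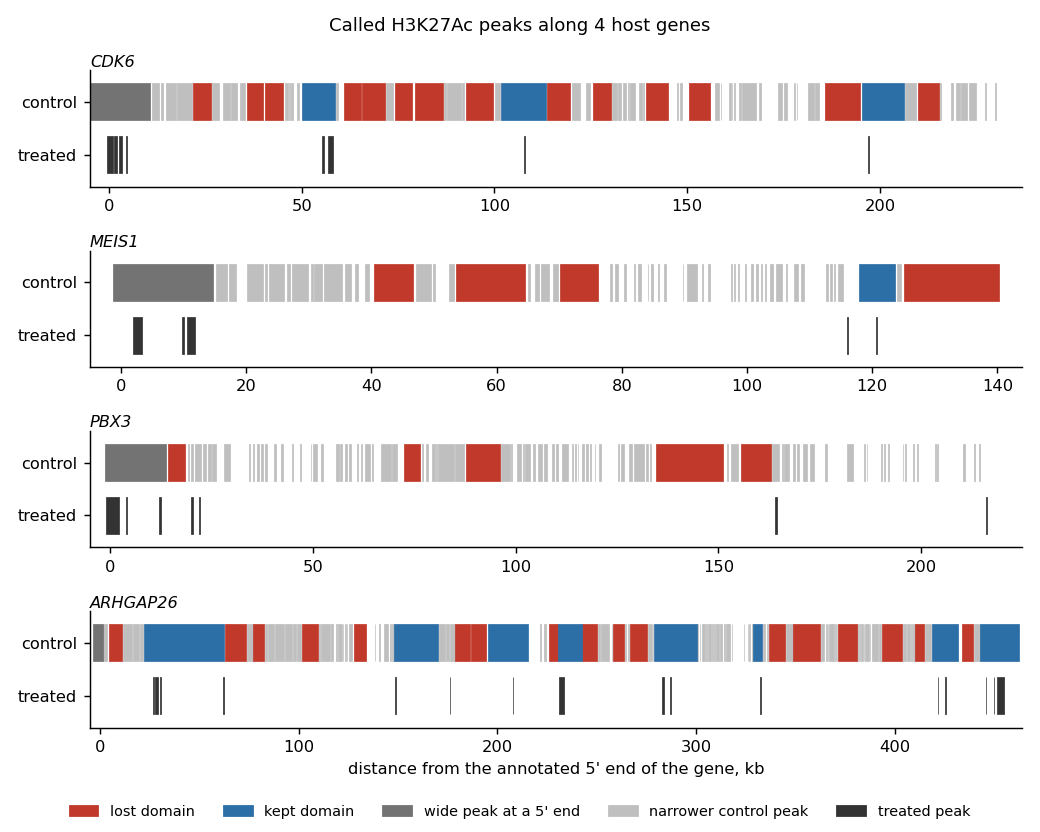
Called H3K27Ac peaks along CDK6, MEIS1, PBX3 and ARHGAP26 in control (upper row of each panel) and treated cells (lower row), by distance from the annotated 5′ end in kb. Lost domains are red, kept domains blue, wide control peaks at a 5′ end dark grey, narrower control peaks light grey and treated peaks black. Treated peaks are few and narrow beside the control peaks, and in CDK6 4 of the 8 treated peaks lie within 5 kb of the 5′ end.

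The other targets were mixed. MEF2C, a myeloid and lymphoid MADS-box factor, had 3 lost domains (folds 3.63 to 3.87) and 3 kept ones (5.7 to 8.37). In JMJD1C, a JmjC-domain protein, 4 were lost and 5 kept, and in RUNX1, the core hematopoietic factor, 5 were lost and 3 kept. A domain of JMJD1C with a fold of 6.04 (chr10:63489464-63502370) was lost while 4 of its 5 kept domains had lower folds, from 3.77 to 5.68, so the order of fold was not followed within that gene. In BCL2, the apoptosis inhibitor, 4 domains were lost (25.8 kb) and the 2 kept ones included a domain of 49332 bp with a fold of 8.65. BAZ2B had 4 lost and 2 kept domains, RUNX2 1 and 4, and SUPT3H 1 lost domain. FLT3, a receptor tyrosine kinase, and SENP6, a SUMO protease, had 3 broad intragenic domains each that met the 1 bp limit for kept. In FLT3 the treated peaks covered 36.4%, 24.3% and 15.2% of the domains, and in SENP6 they covered 3.27%, 1.43% and 1.55%.

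Among 53 hematopoietic transcription factors, 24 held a broad intragenic domain and 14 (26.4%) a lost one, against 7.64% of all genes, at a median gene length of 107 kb against 24.3 kb. A kept domain was held by 19 of the 53, against 1351 of all 18408 genes. The excess over all genes was thus not particular to lost domains. Of the domains in these factors, 48 of 87 were lost (55.2%, 44.7 to 65.2). FOXP1 led with 12 lost domains (folds 3.25 to 4.57), whereas its 4 kept ones had folds of 4.62 to 7.53. ETV6 followed with 7, and ERG held 1 with no kept domain. Among 74 chromatin regulators, 25 held a domain and 18 (24.3%) a lost one, against the same 7.64%, at a median length of 119 kb, and 41 of 75 domains were lost (54.7%, 43.4 to 65.4). Here 16 of the 74 held a kept domain. The histone deacetylase genes HDAC9 and HDAC4 had 4 and 5 lost domains beside 1 and 3 kept ones, and the DNA methyltransferase gene DNMT3A had 3 and none kept. The lost domains in ASXL2 and KMT2C, of the Polycomb-linked deubiquitinase and the MLL3 complex, had folds of 5.79 and 5.96.

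Beside ARHGAP26, the Rac exchange factors DOCK2 and VAV3 had 7 lost domains each, with 1 and 2 kept, while PREX1 had 6 lost and 8 kept. A kept domain of 31101 bp in DOCK2 had a fold of 7.58 and shared only 348 bp with a treated peak. In cytokine and kinase signalling, 23 of 74 genes (31.1%, median length 87.2 kb) held a lost domain, against 7.64% of all genes, and 43 of 87 domains were lost (49.4%, 39.2 to 59.7). More of the 74 genes, 25, held a kept domain. Genes with a lost domain included PIK3AP1 (6 lost, none kept), GAB2, a docking adaptor (4 lost, 4 kept), IL1RAP, the interleukin-1 coreceptor (3 lost, 1 kept), and the M-CSF receptor gene CSF1R (1 lost of fold 6.26, 2 kept). KIT, the stem cell factor receptor, had a single domain, and it was lost (9112 bp, fold 3.73).

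Of 39 genes of myeloid differentiation and function, 8 (20.5%, against 7.64% of all genes) held a lost domain, at a median length of 18.6 kb, with 9 of 19 domains lost (47.4%, 27.3 to 68.3). Kept domains lay in 6 of the 39. ITGAM, which encodes CD11b, had 1 lost domain (6189 bp, fold 4.55) and ITGAX, which encodes CD11c, had 1 (5023 bp, fold 4.28), with no kept domain in either. CD86, a costimulatory ligand, had 2 lost and 2 kept domains. The paper reported that SNDX-50469 raised the mRNAs of ITGAM, ITGAX and CD86 in both MOLM13 and OCI-AML3 cells. For MEIS1, JMJD1C, PBX3 and CDK6, which also held lost domains, the paper reported lower mRNAs in treated MOLM13 cells. A lost domain alone therefore does not give the direction of expression, and RNA was not examined here. Among 27 cell cycle and apoptosis genes, 6 (22.2%, against 7.64%) held a lost domain, at a median length of 31.5 kb, and 22 of 33 domains were lost (66.7%, 49.6 to 80.2). Of these 22, 14 were in CDK6 and 4 in BCL2, and RB1, APAF1, CCND2 and CCND3 held 1 each. As many of the 27 genes, 6, held a kept domain. The interval of each of these lists included the share of all domains, 52.5%, and genes such as CDK6, PBX3, RUNX1 and CSF1R stand on more than 1 list.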

How the data were processed

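H3K27Ac peak lists of MOLM13 cells were analysed, 1 control and 1 treated with SNDX-50469. The submitters' processing notes name Trim Galore 0.6.5, Bowtie2 2.3.4.2, Picard 2.9.0, MACS2 2.1.2 and build GRCh38, whereas the supplementary methods name TopHat2 with hg38. Calling options and the use of input are not given in the sources used here. Each list deposited by the authors gives a score, a ratio (fold enrichment over background averaged over the peak), and −log10 p and −log10 q of each peak. The score was not used. These values are relative to each library and were compared only within the control list, except for the smallest values of each list.

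Intervals were intersected in Python 3.11.15 with numpy 2.4.6, pandas 2.3.3, scipy 1.17.1 and matplotlib 3.10.9. Interval functions were tested on simulated data against direct enumeration. Genes were 20033 protein-coding genes of RefSeq (GRCh38.p14), with the outermost annotated end as 5′ end. The strand came from the RefSeq promoter table (15841 genes) or, by identifier or symbol, from GENCODE (3830), from which no coordinate was used, and both ends were used for 362 genes. RefSeq also gave start windows and miRNAs. A domain's host is the gene sharing most bases with it, but counts per gene use every overlapping gene, and 3.33% of lost domains overlap more than 1. Summed widths per gene use whole domains, also where these reach beyond the gene. Members, gene lists and alternatives were chosen with earlier results of these data known. Named genes were the 10 lost domains of highest fold, the 10 widest, the 10 hosts of largest lost length, list genes of largest lost length, the 5 kept domains of highest fold and the 3 nearest each limit. FLT3, SENP6, KIT, ITGAM, ITGAX and others named on lists were picked after their values were seen. With 1 library per condition no test was made, and neighbouring domains are not independent. A few genes and 1 gene list are not reported here.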

Additional observations from a re-analysis of the deposited data

How the results depend on the processing

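No paired analysis was possible because only 1 H3K27Ac library per condition was analysed. The share of domains lost (52.5%) moved outside its interval in 15 of 18 alternatives. It was 69.8%, 39% and 28.1% with a width of at least 2000, 6000 and 8000 bp. With the 5′ ends of all annotated genes it was 56.1%, and with the further protein-coding starts of the promoter table, an alternative chosen after seeing the data, 54.5%. Counting as kept only domains with 200 bp or 10% of the width shared gave 59.4% and 74.6%, and asking that lost domains have no treated peak within 1 or 5 kb gave 50.3% and 39.9%. Control peaks with −log10 q of 5 or more gave 19.2%, treated peaks with −log10 q of at least 2 or 5 gave 74.3% and 97.5%, and control peaks at or above the smallest treated −log10 p gave 49.8%, or, by the smallest treated fold (added after seeing the data), 48.7%. Merging control peaks within 1 kb gave 68.4%. The level of the share thus follows the limits set, while distances of 5 and 10 kb and leaving out chromosomes 5, 6 and 13 gave 53% to 54%. The difference of median control fold, lost minus kept (-1.32), kept its sign in 3 of 3 alternatives and moved to -1.93 with 10% of the width shared. The difference of median distance to a 5′ end (10.4 kb) stayed positive in 3 of 3 alternatives, at 6.09 to 13.7 kb. In the middle tertile of fold, however, its range ran from -1.97 to 15.1 kb. That range was formed by subtracting opposite ends of the intervals of the lost and kept medians and is not a Wilson interval. Read depth and replicate spread are unknown for both lists. The shares of domains with an internal start by width and per Mb were added after seeing the data.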
